A study of Mus musculus with 60 samples.

Results

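Mir155hg and Mir17hg are the mouse host genes of miR-155 and of the miR-17-92 cluster, and the values below give how often a broken DNA end placed elsewhere in the genome had been joined to them. Their windows, chr16:84690000-84729999 (40 kb) for Mir155hg and chr14:115400000-115499999 (100 kb) for Mir17hg in mm9, were selected on the junction counts, peak positions and strands of the libraries described here. All levels, positions and strands of both loci are therefore descriptions and carry no test. Of 1219247 junctions in 60 libraries, 550526 were genome-wide, meaning outside chromosomes 15, M and Y and outside the immunoglobulin loci. The Mir155hg window held 288 of these (0.0523%) and the Mir17hg window held 620 (0.113%). Levels are given as junctions per 10000 genome-wide junctions of a library. Such a level is a share, so more junctions at a locus and fewer elsewhere cannot be told apart.

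The libraries came from LAM-HTGTS, a sequencing method that starts from a fixed bait break and reads the sequences that were joined to it. The cells were CH12F3, a mouse B lymphoma line that can switch to IgA, stimulated for 72 h with TGF-β, IL-4 and anti-CD40 in all 12 groups. In Ligase4-KO cells, which lack the ligase of classical end joining, there were 5 libraries each with valemetostat, tazemetostat and DMSO. In AID-KO cells, which lack activation-induced cytidine deaminase (AID), there were 3 with valemetostat, 4 with tazemetostat and 5 with DMSO. AID-WT cells also given idelalisib, an inhibitor of PI3Kδ, had 5 of each, and AID-WT cells had 8 with valemetostat, 5 with tazemetostat and 5 with DMSO. Valemetostat and tazemetostat are both inhibitors of EZH2, the histone H3 lysine methyltransferase of the Polycomb system. The labels give no doses, do not say whether a knockout line was a single clone, and do not say that replicates were separate cultures. The p-values below therefore measure only the spread between libraries, which may be technical.

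Host genes of this kind are transcribed as long non-coding RNAs from which hairpins, and then mature microRNAs, are cut out. Mir155hg, first known as BIC, is switched on when B cells are activated and is known for its part in the germinal centre response. Mir17hg carries the miR-17-92 cluster, which is driven by Myc and is known to hold down the death gene Bim in lymphocytes. AID acts on transcribed DNA, above all in the switch regions of Igh. It also leaves breaks at other strongly transcribed genes of activated B cells, which makes such genes partners in translocations.

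The mature microRNAs are printed to show what the 2 loci encode and that no seed is shared between them. All 7 names looked for were found in RefSeq's table for GRCm38.p6, and the capitals mark the seed, bases 2 to 8, by which a microRNA pairs with its targets. Mir155hg on chromosome 16 gives 1 of them, and the other 6 lie in Mir17hg on chromosome 14. In the Mir17hg set, miR-17 and miR-20a share a seed and so do miR-19a and miR-19b.
mmu-miR-155-5p: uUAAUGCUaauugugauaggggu
mmu-miR-17-5p: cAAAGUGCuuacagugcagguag
mmu-miR-20a-5p: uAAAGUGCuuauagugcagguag
mmu-miR-18a-5p: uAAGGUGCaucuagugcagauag
mmu-miR-19a-3p: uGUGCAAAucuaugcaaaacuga
mmu-miR-19b-3p: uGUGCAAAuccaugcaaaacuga
mmu-miR-92a-3p: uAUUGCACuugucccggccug

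Depth differed by background. Libraries held 35258 to 56900 junctions in Ligase4-KO and 7419 to 22089 in the others, of which 11269 to 19119 and 4450 to 14497 were genome-wide. At this depth a single junction weighed between 1.06 and 2.25 per 10000 in the AID-WT tazemetostat libraries, so low levels move in steps. Igh held 1 to 13 junctions per AID-KO library and 92 to 726 in every other library, which is the check of the AID-KO label. No run held DMSO libraries of more than 1 background, so run and background cannot be told apart in the comparisons between backgrounds with DMSO. The valemetostat libraries of AID-WT and of AID-WT plus idelalisib shared 1 run.

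Mir155hg was reached most often in Ligase4-KO cells, and there most often with tazemetostat. Ligase4-KO tazemetostat libraries held 21.3, 11.6, 13.8, 8.70 and 16.1 junctions per 10000 (replicates 1 to 5), and Ligase4-KO valemetostat libraries held 14.8, 16.3, 5.87, 13.8 and 4.71. Ligase4-KO DMSO libraries held 4.30, 6.31, 8.87, 8.13 and 7.26. Of the 5 tazemetostat libraries 4 lay above all DMSO libraries, and the groups overlapped because the lowest tazemetostat value, 8.70, lay under the highest DMSO value, 8.87. The valemetostat libraries were spread on both sides, with 3 above all DMSO libraries and 2 below the DMSO mean.

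The mean level at Mir155hg was 14.3 ± 4.79 with tazemetostat and 6.98 ± 1.77 with DMSO in Ligase4-KO (SD, n = 5 each), from 100 and 48 junctions, a ratio of 2.05. The difference of 7.33 had a standard error of 2.28, and the log2 fold change fitted with limma voom was 0.99 ± 0.26 (SE). With valemetostat the mean was 11.1 ± 5.399 (SD, n = 5) from 82 junctions, 1.59 times the DMSO mean, with a fitted log2 fold change of 0.49 ± 0.29 (SE). The difference of 4.13 for valemetostat was smaller than the SD of the valemetostat libraries. All 15 libraries shared 1 run. Among windows with enough junctions to be tested, 25 of 365 (6.85%) passed at an adjusted p under 0.05 for tazemetostat in Ligase4-KO. For valemetostat 8 of 412 (1.94%) passed. Both loci were among the windows tested in every comparison, whatever their tally. Since Mir155hg was chosen by these counts, nothing is read from its place among them.

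**Figure D1:**
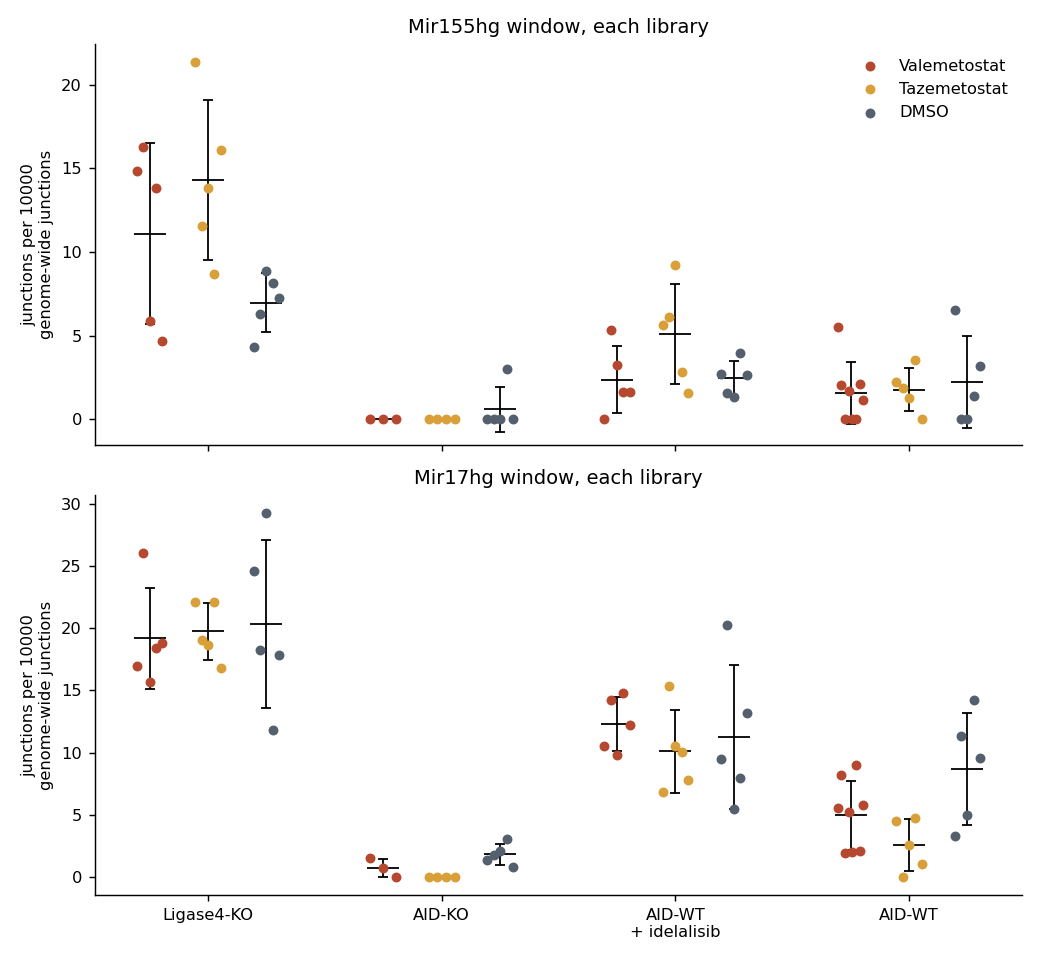
Junctions per 10000 genome-wide junctions in each library (points, coloured by treatment) with the group mean and SD (black), for the Mir155hg window (top) and the Mir17hg window (bottom), by background along the x axis. The 3 Ligase4-KO group means are the highest at both loci, although single libraries overlap with other backgrounds; at Mir155hg the Ligase4-KO tazemetostat mean is 14.3 against 6.98 with DMSO, whereas at Mir17hg the 3 Ligase4-KO means lie between 19.2 and 20.4.

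Mir155hg was nearly empty without AID. Its 12 AID-KO libraries held 2 junctions in all, both in DMSO replicate 4, where they made 3.01 per 10000. The valemetostat and tazemetostat libraries of AID-KO held 0 junctions, which allows pooled levels of up to 0.894 and 1.32 per 10000 (upper ends of 95% exact Poisson intervals). Pooled over treatments, AID-KO stood at 0.188 per 10000 (95% exact Poisson interval 0.0228 to 0.681), against 1.70 (1.04 to 2.63) in AID-WT. Intervals of this kind cover counting error only. Neither of the 2 AID-KO junctions lay near the peak of the locus: both were on the minus strand, at 84714895 and 84714976, about 10.1 kb above its middle.

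In AID-WT cells the Mir155hg level was low in every treatment. The 8 valemetostat libraries held 0 to 5.53 junctions per 10000 with a median of 1.44, and the tazemetostat libraries held 2.25, 1.88, 1.27, 3.54 and 0. The AID-WT DMSO libraries held 6.53, 0, 0, 1.43 and 3.18. In the DMSO group 4 of the 7 junctions lay in replicate 1, and the 3 groups overlapped throughout. Their means were 1.57 ± 1.84 (n = 8) with valemetostat, 1.79 ± 1.30 (n = 5) with tazemetostat and 2.23 ± 2.74 (n = 5) with DMSO (SD), so no difference exceeded the spread between libraries.

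AID-WT plus idelalisib libraries were higher at Mir155hg with tazemetostat than with DMSO, but with overlap. The tazemetostat libraries held 5.67, 6.15, 9.24, 2.86 and 1.55 per 10000, the valemetostat libraries held 0, 5.33, 3.26, 1.64 and 1.63, and the DMSO libraries held 2.70, 1.56, 1.36, 3.98 and 2.64. With tazemetostat 3 libraries lay above every DMSO library and 1 lay below the DMSO mean. The means were 5.09 ± 3.01 with tazemetostat, 2.37 ± 2.02 with valemetostat and 2.45 ± 1.05 with DMSO (SD, n = 5 each), from 19, 8 and 9 junctions. The tazemetostat difference of 2.65 had a standard error of 1.42 and a fitted log2 fold change of 0.78 ± 0.55 (SE). It was 1.61 without tazemetostat replicate 3. Of 54 windows tested in this comparison 0 passed (0%, limma voom), 5 had an unadjusted p under 0.05, and limma trend also called 0. For valemetostat 1 of 57 windows passed (1.75%). The valemetostat libraries of this background and of AID-WT were sequenced in a run without DMSO libraries, so run and valemetostat cannot be told apart there.

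Between backgrounds treated with DMSO, Mir155hg in Ligase4-KO stood at 3.13 times the AID-WT mean. The difference was 4.75 with a standard error of 1.46, every Ligase4-KO library lay above the AID-WT mean, and 3 of them lay above every AID-WT library. Depth did not overlap, with 11269 to 16267 genome-wide junctions per library in Ligase4-KO DMSO and 6046 to 7012 in AID-WT DMSO, and its part in the result was not tested. AID-KO DMSO averaged 0.603 ± 1.35 against 2.23 ± 2.74 in AID-WT DMSO (SD, n = 5 each), a difference of -1.62 that was -0.547 without AID-WT DMSO replicate 1. AID-WT plus idelalisib DMSO differed by 0.219 from AID-WT DMSO, with a standard error of 1.31 and values between -0.337 and 1.30 with 1 library left out. In the order of the 12 group means, from Ligase4-KO tazemetostat at the top to AID-KO tazemetostat and valemetostat at 0, the libraries of every group overlapped with those of the next.

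Mir17hg was also reached most often in Ligase4-KO cells, but there its level was nearly the same in all 3 treatments. Ligase4-KO valemetostat libraries held 16.9, 26.1, 15.7, 18.5 and 18.8 junctions per 10000, and tazemetostat libraries held 22.1, 19.1, 18.7, 22.1 and 16.8. Ligase4-KO DMSO libraries held 24.6, 18.2, 29.3, 11.8 and 17.8, the widest of the 3 groups, and covered both inhibitor groups from end to end. The means were 19.2 ± 4.06, 19.8 ± 2.31 and 20.4 ± 6.73 (SD, n = 5 each), from 148, 140 and 142 junctions. Against DMSO the fitted log2 fold changes were -0.03 ± 0.19 with valemetostat and 0.02 ± 0.18 with tazemetostat (SE), in the same libraries in which those of Mir155hg were 0.49 and 0.99. Whether the responses of the 2 loci differ was not tested, since both were selected on these counts. As a description, Mir17hg held 1.80 junctions for each at Mir155hg with valemetostat, 1.40 with tazemetostat and 2.96 with DMSO in Ligase4-KO.

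In AID-WT cells Mir17hg was lower with both inhibitors than with DMSO. The tazemetostat libraries held 4.49, 0, 2.54, 4.72 and 1.06 junctions per 10000, and the 8 valemetostat libraries held 1.94 to 8.99 with a median of 5.35. The DMSO libraries held 3.27, 11.4, 4.96, 14.3 and 9.53. All 5 tazemetostat libraries lay below the DMSO mean and 4 of the 5 DMSO libraries lay above every tazemetostat library, with DMSO replicate 1 inside the tazemetostat range. The means were 2.56 ± 2.07 with tazemetostat (n = 5), 4.96 ± 2.77 with valemetostat (n = 8) and 8.68 ± 4.53 with DMSO (n = 5) (SD), from 9, 24 and 28 junctions. The tazemetostat difference was -6.11 with a standard error of 2.23, a ratio of 0.295, and the fitted log2 fold change was -1.69 ± 0.55 (SE). For valemetostat the difference was -3.72 with a standard error of 2.25, a ratio of 0.572, with 7 of 8 libraries below the DMSO mean. Without AID-WT DMSO replicate 4 it was -2.32. Among the windows tested, both loci included, 3 of 38 (7.89%) passed for tazemetostat in AID-WT. For valemetostat 4 of 19 (21.1%) passed, all 4 lower. These shares do not stand apart from Mir17hg. The median log2 fold change over the windows tested was -0.08 for tazemetostat and -0.74 for valemetostat. With valemetostat Mir17hg, at -0.74 ± 0.46 (SE), was itself the median window, so nothing is read from the match of these values.

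Idelalisib-treated AID-WT cells showed no such gap at Mir17hg. Libraries with tazemetostat held 6.80, 15.4, 10.6, 10.02 and 7.76 per 10000 and those with valemetostat 10.5, 14.2, 9.77, 14.8 and 12.2. Those with DMSO held 9.46, 20.3, 5.42, 7.95 and 13.2, a range that contained all 10 inhibitor libraries. The means of 10.1 ± 3.33, 12.3 ± 2.21 and 11.3 ± 5.78 (SD, n = 5 each) differed by less than the SD of the DMSO libraries. Whether the inhibitor differences of this background differ from those of AID-WT was not tested. With valemetostat, where both backgrounds shared 1 run, AID-WT libraries held 1.94 to 8.99 and idelalisib-treated libraries 9.77 to 14.8, without overlap. At Mir155hg the same groups overlapped, with 0 to 5.53 and 0 to 5.33. Neither contrast was tested.

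Without AID, Mir17hg kept a few junctions. AID-KO valemetostat libraries held 1.47, 0.690 and 0 per 10000, and all 4 tazemetostat libraries held 0. For tazemetostat this allows a pooled level of up to 1.32 per 10000 (upper end of the 95% exact Poisson interval). AID-KO DMSO libraries held 1.38, 1.75, 2.06, 3.01 and 0.800, from 1, 1, 1, 2 and 1 junctions. The tazemetostat and DMSO libraries of AID-KO did not overlap, but the whole DMSO group rests on 6 junctions and no fold is given. For valemetostat the difference was -1.08 over all libraries and -0.0789 within the run that held both groups, where DMSO had 1 library, replicate 5. It was -0.72 without AID-KO valemetostat replicate 3, the library at 0. In AID-KO, 2 of 13 windows (15.4%) passed for tazemetostat against DMSO and 0 of 36 (0%, limma voom) for valemetostat against DMSO, where 3 had an unadjusted p under 0.05. Both loci were counted among these windows, though their mean tallies were 0.222 (Mir155hg) and 0.667 (Mir17hg) for tazemetostat. For valemetostat the tallies were 0.25 and 1.125, so neither share stands apart from the 2 loci. Limma trend called 1 window for tazemetostat and 0 for valemetostat in AID-KO.

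Against AID-WT DMSO, the Mir17hg mean of AID-KO DMSO was lower and that of Ligase4-KO DMSO was higher. AID-KO DMSO averaged 1.80 ± 0.825 against 8.68 ± 4.53 in AID-WT DMSO (SD, n = 5 each), a ratio of 0.208, and no AID-KO library reached the lowest AID-WT library. The fitted log2 fold change was -2.02 ± 0.55 (SE), where 16 of the 23 windows tested (69.6%) passed and the median over these windows was -1.94. Ligase4-KO DMSO had 2.35 times the AID-WT DMSO mean, a difference of 11.7 with a standard error of 3.63 and a fitted log2 fold change of 1.20 ± 0.42 (SE). In that comparison 62 of 135 windows (45.9%) passed, 56 of them higher in Ligase4-KO, with a median of 0.88. In both comparisons a window needed a mean tally of at least 2, more easily reached through the group where it was high. The direction of most calls is therefore no separate result. AID-WT plus idelalisib DMSO averaged 11.3, and its difference of 2.58 from AID-WT DMSO had a standard error of 3.28. That difference was 0.327 without AID-WT plus idelalisib DMSO replicate 2, 1.23 and 1.66 without AID-WT DMSO replicates 1 and 3, and 4.04 and 3.98 without AID-WT plus idelalisib DMSO replicate 3 and AID-WT DMSO replicate 4. In the order of the 12 means the 3 Ligase4-KO groups came first, and the only neighbours whose libraries did not overlap were Ligase4-KO valemetostat and AID-WT plus idelalisib valemetostat, 6.88 apart.

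Junctions at Mir155hg gathered in a narrow peak. The densest 1 kb of all libraries together, 84704344 to 84705343, held 85 of 288 junctions, and the 10 kb around its middle held 264, or 91.7% (95% exact binomial interval 87.9 to 94.6). That core held 214 of 230 junctions in Ligase4-KO, 34 of 36 in AID-WT plus idelalisib and 16 of 20 in AID-WT, and 0 of the 2 in AID-KO. In mm9 the neighbouring 40 kb windows held 9 junctions on either side, so the locus stood out sharply from its surroundings. Among all 40 kb windows with a junction it ranked 16 in Ligase4-KO, 30 in AID-WT plus idelalisib and 34 in AID-WT, and 16473 in AID-KO. In the order of genes in GRCm38.p6 the nearest protein-coding genes were Ncam2, a neural adhesion molecule, and Mrpl39, a mitochondrial ribosomal protein.

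Mir17hg had a broader and lopsided peak. Its densest 1 kb, 115441490 to 115442489, held 117 of 620 junctions and the 10 kb around its middle held 420, or 67.7% (95% exact binomial interval 63.9 to 71.4). In Ligase4-KO, 116 junctions lay below the core in coordinate and 22 above it, against 17 and 15 in AID-WT plus idelalisib and 15 and 13 in AID-WT. The tail below the core went on into the neighbouring 100 kb, which in Ligase4-KO held 33 junctions below the window and 7 above it, beside 430 inside it. Among 100 kb windows with a junction Mir17hg ranked 8 in Ligase4-KO, in AID-WT plus idelalisib and in AID-WT, and 2083 in AID-KO. Its nearest protein-coding neighbours in GRCm38.p6 were Slitrk5 and Gpc5, a neuronal membrane protein and a glypican. The mm9 annotation was not used here, so exons and start sites are not placed under these peaks.

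**Figure D2:**
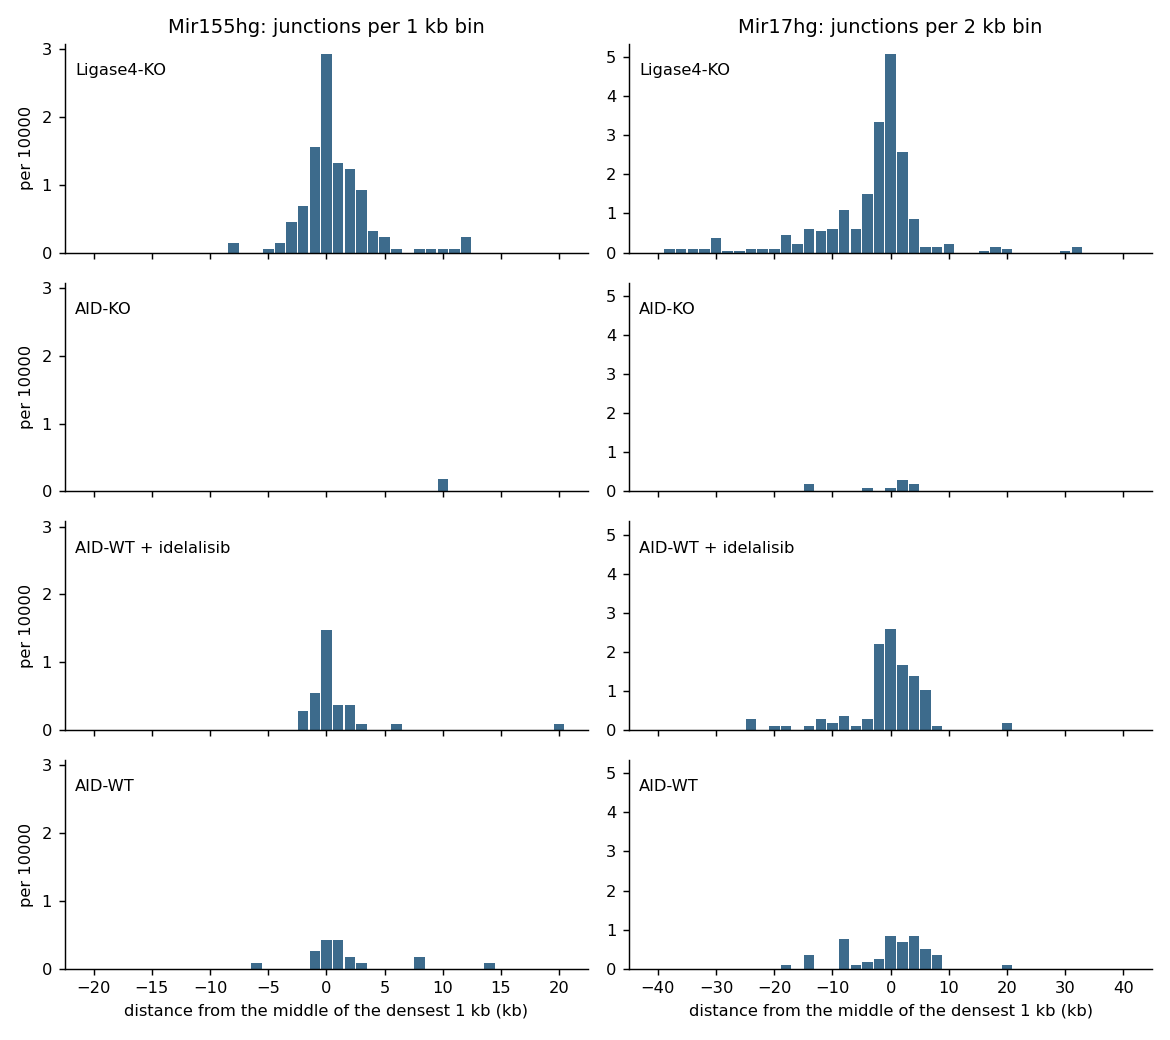
Junctions per 10000 genome-wide junctions against the distance in kb from the middle of the densest 1 kb, pooled by background (rows), in 1 kb bins at Mir155hg (left) and 2 kb bins at Mir17hg (right). Bars stand for pooled junctions of 15 Ligase4-KO, 12 AID-KO, 15 AID-WT plus idelalisib and 18 AID-WT libraries; the Mir155hg peak is narrow, and in Ligase4-KO the Mir17hg peak has a tail at lower coordinates (116 junctions below the core and 22 above it).

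Pooled over treatments, the peaks stood at nearly the same place in most backgrounds. At Mir155hg the densest 1 kb began at 84704344 in Ligase4-KO, 84704144 in AID-WT plus idelalisib and 84703964 in AID-WT, where it held 64, 18 and 6 junctions. At Mir17hg it began at 115441490, 115441170 and 115441547, with 86, 24 and 9 junctions. The Mir17hg core held 292 of 430, 88 of 120 and 33 of 61 junctions in these backgrounds. The AID-WT peak was weakly placed. By treatment its densest 1 kb began at 115433369 with valemetostat (5 of 24 junctions), 115446364 with tazemetostat (4 of 9) and 115441677 with DMSO (4 of 28). In AID-KO the 9 Mir17hg junctions lay between -13.8 and 4.42 kb from the middle and 7 of them lay in the core, while Mir155hg had 2 junctions, too few to place a peak. Of those 9, the junction at 115428223 on the minus strand and the one at 115438404 on the plus strand each recurred at the same base in AID-WT and in AID-WT plus idelalisib, in 3 libraries each. Recurrence was otherwise rare. The 620 Mir17hg junctions had 591 distinct positions and strands and the 288 of Mir155hg had 281, and no library listed a position and strand more than 1 time. The most widely shared base, 115441816 on the plus strand, was seen in 4 libraries, all Ligase4-KO.

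Pooled over all libraries, both loci held more junctions listed on the plus strand than on the minus strand. Mir155hg had 166 plus and 122 minus, or 57.6% plus (95% exact binomial interval 51.7 to 63.4), and Mir17hg had 361 and 259, or 58.2% (54.2 to 62.1). Genome-wide the plus share was 50.0%. The sources used here do not say how the strand column relates to the direction of the bait. Junctions pooled here share libraries, and the intervals cover counting error only.

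The strands were laid out differently along the 2 loci in Ligase4-KO. At Mir17hg, 145 of 181 minus-strand junctions (80.1%, 95% exact binomial interval 73.5 to 85.7) lay below the middle of the peak, and their densest 2 kb, with 56 junctions, spanned -4.18 to -2.18 kb from it. The plus-strand junctions of Mir17hg peaked at the middle itself, with 120 of 249 in the 2 kb that spanned -0.468 to 1.53 kb from it. The middle was set on all junctions of the locus, of which 58.2% were plus-strand and 69.4% came from Ligase4-KO. That the plus strand peaked there is therefore partly fixed by how the middle was set. At Mir155hg the densest 2 kb of both strands fell within 1.06 kb of the middle, with 62 of 128 plus-strand and 47 of 102 minus-strand junctions. There, 88 of 128 plus-strand junctions lay above the middle (68.8%, 59.96 to 76.6) and 57 of 102 minus-strand junctions lay below it (55.9%, 45.7 to 65.7).

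Outside Ligase4-KO fewer junctions were available and the strand layout of Mir17hg varied between groups. Minus-strand junctions below the middle numbered 24 of 45 in AID-WT plus idelalisib (53.3%, 95% exact binomial interval 37.9 to 68.3) and 16 of 29 in AID-WT (55.2%, 35.7 to 73.6). The densest 2 kb of minus-strand junctions spanned the middle in both, with 11 and 8 junctions. On the plus strand the densest 2 kb of AID-WT spanned 3.59 to 5.59 kb from the middle, with 8 of 32 junctions, and that of AID-WT plus idelalisib spanned -1.58 to 0.415 kb, with 24 of 75. In AID-WT plus idelalisib with tazemetostat 8 of 11 minus-strand and 19 of 25 plus-strand junctions lay below the middle. Whether the layout differs between backgrounds was not tested. Within Ligase4-KO the uneven layout was found in each treatment, with 50 of 59 minus-strand junctions below the middle with valemetostat, 46 of 61 with tazemetostat and 49 of 61 with DMSO. At Mir155hg the median plus-strand junction lay 1.83 kb above the middle with valemetostat, 0.816 kb with tazemetostat and 0.021 kb with DMSO, from 45, 56 and 27 junctions.

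**Figure D3:**
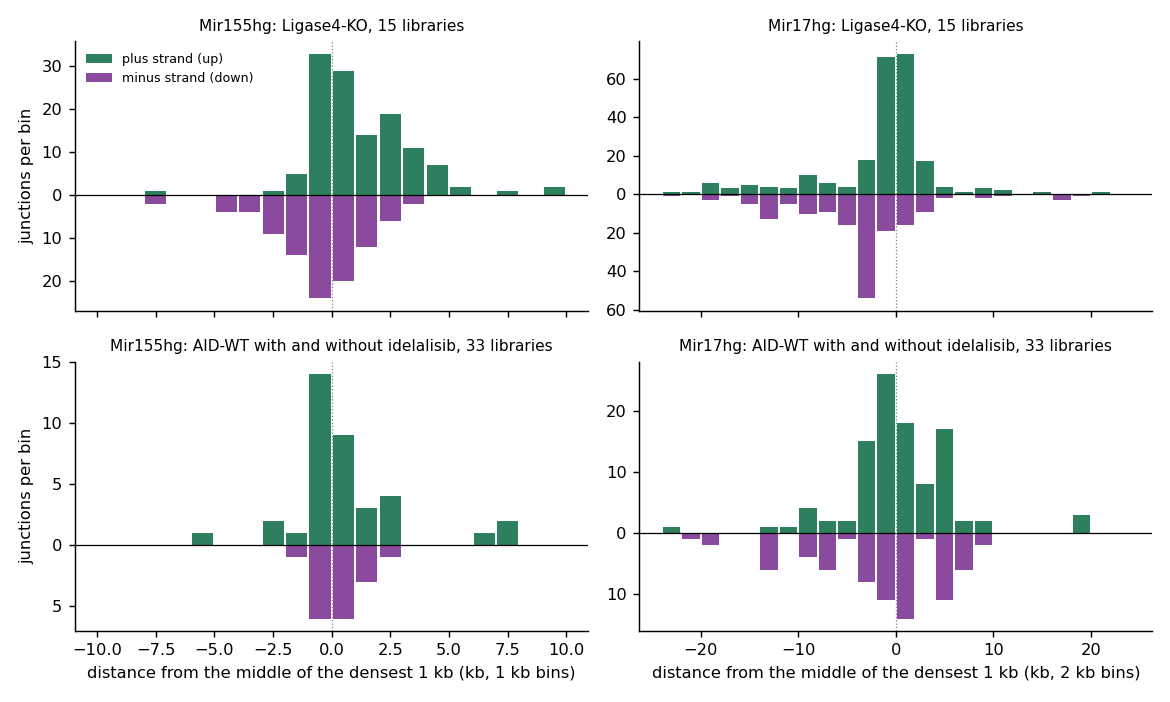
Junctions per bin on the plus strand (up) and on the minus strand (down) against the distance in kb from the middle of the densest 1 kb, for Mir155hg (left, 1 kb bins) and Mir17hg (right, 2 kb bins), in Ligase4-KO (top) and in AID-WT with and without idelalisib (bottom). In Ligase4-KO the minus-strand junctions of Mir17hg peak below the middle, where 145 of 181 lie, while the plus-strand junctions peak at it.

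Counted in the 10 kb core alone, the order of the 3 Ligase4-KO groups was kept at Mir155hg but not at Mir17hg. The Ligase4-KO core of Mir155hg held 13.6 ± 4.10 with tazemetostat, 10.03 ± 4.94 with valemetostat and 6.53 ± 1.70 with DMSO (SD, n = 5 each). That of Mir17hg held 14.5 ± 3.21, 12.6 ± 2.97 and 13.4 ± 5.71 (SD, n = 5 each), so its tazemetostat difference turned to 1.07, within the SD of the DMSO libraries. In AID-WT the Mir17hg core held 1.15 ± 0.798 with tazemetostat (n = 5), 2.23 ± 2.32 with valemetostat (n = 8) and 5.58 ± 3.38 with DMSO (n = 5) (SD). The Mir155hg core held 0 junctions in all 12 AID-KO libraries.

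Other loci put these values in context. A list of 13 genes known as AID targets or as B cell activation genes, chosen with earlier results of these data known, was read through the 100 kb window of each gene that held the most junctions. In Ligase4-KO with tazemetostat 10 of them were tested and 4 passed, where 6.85% of all windows tested passed. Pim1, a serine/threonine kinase and classical AID target, rose to 43.6 against 30.5 junctions per 10000 with DMSO (group means, n = 5 each), a log2 fold change of 0.54 ± 0.13 (SE, limma voom, adjusted p = 0.00212). Nfkbia, which encodes the NF-κB inhibitor IκBα, rose by 0.72 ± 0.14 (SE, limma voom, adjusted p = 5.17e-05). Tnfaip3, the gene of the NF-κB brake A20 and named here after its value was seen, rose by 0.62 ± 0.18 (SE, limma voom, adjusted p = 0.0129), and the call ended without tazemetostat replicate 3 (adjusted p = 0.0515). Il4ra, the interleukin-4 receptor, fell by 0.99 on the log2 scale (limma voom, adjusted p = 0.0138), and that call ended without DMSO replicate 2 or tazemetostat replicate 3 or 5 (adjusted p up to 0.0894).

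The 10 tested loci had a median log2 fold change of 0.44 with tazemetostat in Ligase4-KO, where all 365 windows tested had 0.17. Mir155hg, at 0.99, lay above the values of all 10, and Mir17hg, at 0.02, lay above that of Il4ra alone. These are places in an order among chosen loci, and the members carry no test. With valemetostat 9 loci were tested, their median was 0.38 against 0.14 over all windows, and 1 passed, where 1.94% of all windows did: Nfkbia, which rose by 0.68 ± 0.15 (SE, limma voom, adjusted p = 0.00501). Pim1 had a log2 fold change of 0.45 (limma voom, adjusted p = 0.0634). With valemetostat Mir155hg, at 0.49, lay below Pax5 (0.96 ± 0.51, SE) and Nfkbia and above the other loci tested. Mir17hg, at -0.03, lay above Il4ra and Birc3 alone.

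**Figure D4:**
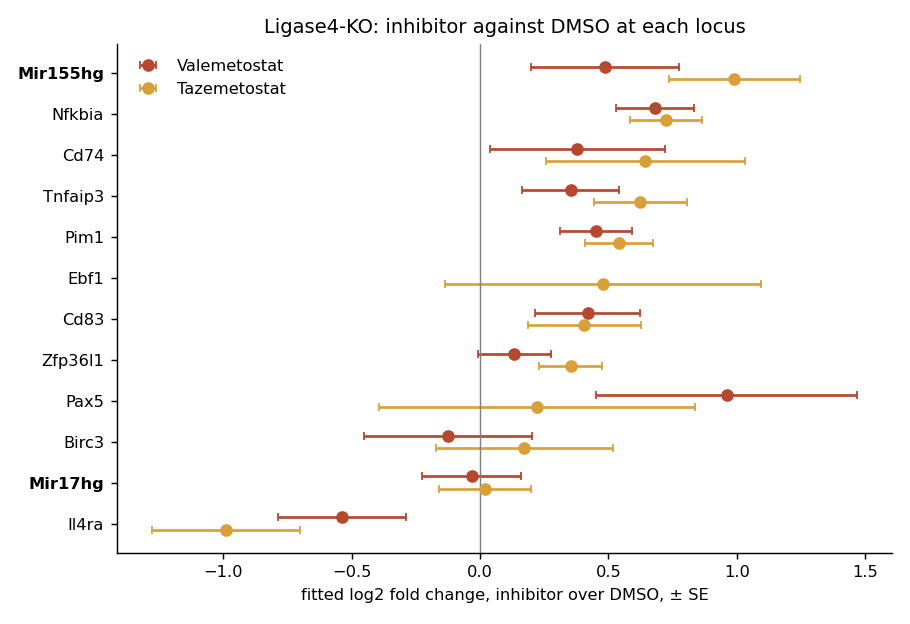
Fitted log2 fold change of inhibitor over DMSO in Ligase4-KO, with its standard error (bars), for Mir155hg, Mir17hg (bold) and the comparison loci tested, ordered by the tazemetostat value; Ebf1 was tested with tazemetostat only. Mir155hg has 0.99 with tazemetostat and 0.49 with valemetostat, and Mir17hg has 0.02 and -0.03.

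In AID-WT cells few of the comparison loci held enough junctions to be tested. With tazemetostat 5 were tested and 1 passed, Nfkbia, which rose by 1.07 ± 0.34 (SE, limma voom, adjusted p = 0.029), while the Mir17hg value was -1.69. That call ended without any of 7 libraries (adjusted p up to 0.262): AID-WT DMSO replicates 1, 3 and 4 and AID-WT tazemetostat replicates 1 to 4. With valemetostat 4 were tested and 1 passed, Cd74, the invariant chain of MHC class II, which fell by 1.67 on the log2 scale (limma voom, adjusted p = 0.0149). Over all windows tested the shares that passed were 7.89% for tazemetostat and 21.1% for valemetostat, the second about that of 1 in 4 loci. In AID-WT plus idelalisib 0 of 6 loci passed with tazemetostat and 0 of 7 with valemetostat (limma voom, smallest adjusted p 0.743 and 0.466). In AID-KO too few junctions remained, with 0 loci tested for tazemetostat and 1, Ebf1, for valemetostat, which did not pass (limma voom, adjusted p = 0.718).

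Between backgrounds the share that passed was high among the windows tested, 16 of 23 (69.6%) for AID-KO and 62 of 135 (45.9%) for Ligase4-KO. The counts of listed loci stand beside those shares. They are not shares of the genome, since a window needed a mean tally of at least 2 to be tested. Mir155hg and Mir17hg were tested whatever their tally. With at least 5, the windows that passed numbered 1 and 31. In AID-KO DMSO against AID-WT DMSO all 4 loci tested fell: Cd83, a B cell activation marker, Nfkbia, Zfp36l1, an RNA-binding protein gene, and Cd74, with log2 fold changes of -2.46, -1.94, -3.77 and -1.85 (limma voom, adjusted p = 0.000742, 0.00128, 7.42e-07 and 0.00178). Only 4 of the 13 listed loci reached the tally filter, mainly through their AID-WT libraries, so that all 4 fell is no separate result. Among those not tested, Bach2, Bcl6, Ebf1 and Birc3 had AID-KO to AID-WT ratios of group means of 1.10 to 1.81. Pim1, Pax5, Il4ra, Tnfaip3 and Aff3 had ratios of 0 to 0.639. In Ligase4-KO DMSO against AID-WT DMSO 6 of the 8 tested rose, among them Pim1 by 3.55 and Nfkbia by 1.82 on the log2 scale (limma voom, adjusted p = 1.09e-07 and 0.00115). Cd74 fell by 1.27 (limma voom, adjusted p = 0.0401), a call that ended without AID-WT DMSO replicate 4 or Ligase4-KO DMSO replicate 1, 3, 4 or 5 (adjusted p up to 0.0784). Mir155hg and Mir17hg, at 1.73 and 1.20, stood below the Pim1 value in that comparison.

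Some windows followed the 12 group means of the host genes closely. Among 557 windows of 100 kb with at least 60 junctions, the 3 most like Mir155hg were chr2:34800000-34899999, chr16:10400000-10499999 and chr8:97300000-97399999, with Pearson r of 0.985, 0.981 and 0.978 over 12 groups. The 3 most like Mir17hg were chr11:61400000-61499999, the Zfp36l1 window chr12:81200000-81299999 and chr10:59600000-59699999, with r of 0.982, 0.974 and 0.958. The Zfp36l1 window averaged 38.9, 45.8 and 36.8 junctions per 10000 in Ligase4-KO with valemetostat, tazemetostat and DMSO. The chr2 window averaged 8.52, 10.8 and 4.36 there, so a higher level with tazemetostat was not particular to Mir155hg. The 2 host genes correlated with each other at r = 0.866. The group means share library depth and the contrast between backgrounds, and no p is given.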

How the data were processed

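The 60 LAM-HTGTS libraries were read as deposited lists of junctions, 1 line each, with a position in mm9 per the submitters' processing notes. The deposited score, from 16 to 222, has no stated meaning: its median was 70 at Mir155hg and 66 at Mir17hg against 59 genome-wide, and no line was left out for it. Which aligner and junction caller were run is not given in the sources used here. It is also not stated whether positions start at 0 or 1. Groups were taken from the labels, and sequencing runs from the read names (6 runs). No pair of libraries shared more than 5.53% of genome-wide positions.

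Levels were computed with Python 3.11.15, pandas 2.3.3 and scipy 1.17.1. Tallies of 100 kb windows, with both loci in place of the windows they overlap, were tested with limma 3.58.1 (voom, R 4.3.3). The library size was the number of genome-wide junctions, with a mean tally of at least 2 (waived for both loci), only the libraries of the 2 groups compared, no covariate, Benjamini-Hochberg adjustment over all windows tested and a threshold of 0.05. The method was tested on simulated data. The loci and gene lists were chosen with earlier results of these data known. Named windows are the 3 with the highest Pearson r per locus; named genes are Pim1 and those nearest in AID-WT DMSO level, others being named after their values were seen. Intervals of comparison loci were written from knowledge, and all 15 loci stood on the same chromosome in GRCm38.p6. Alternatives were another denominator, identical junctions counted 1 time, wider windows, runs, filters, limma trend, a replicate block and each library left out.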

Additional observations from a re-analysis of the deposited data

Results flagged for a closer look

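Of 20 combinations of locus and group looked at, 2 held a library far from the rest, both at Mir155hg. The rate of about 1 in 20 by chance that goes with this rule does not hold for counts near 0. Where all other libraries stand at 0, any junction is flagged. AID-KO DMSO replicate 4 stood at 3.01 junctions per 10000 while the other 4 libraries stood at 0. It held 2 junctions, both on the minus strand and outside the core. AID-WT valemetostat replicate 1 stood at 5.53, from 3 junctions, with the next library at 2.11.

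Every Ligase4-KO tazemetostat library lay above the Ligase4-KO DMSO mean at Mir155hg, and every AID-KO tazemetostat library lay below the AID-KO DMSO mean. The 2 differences were 7.33 and -0.603, which are 7.94 apart. That gap was not tested. All 4 AID-KO tazemetostat libraries stood at 0, as did 4 of 5 AID-KO DMSO libraries, so no value lower than 0 was possible there.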

How the results depend on the processing

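For the 22 differences in level, 220 of 220 values with 1 library left out stayed within 1 SD of the value given. At these group sizes the loss of 1 library cannot move a difference by more than 1 SD, so this count could not have come out otherwise. Under other settings 90 of 92 values stayed within 1 SD. The exceptions were inhibitor minus DMSO differences of Mir17hg in AID-KO: -1.18 for tazemetostat in the core alone, a setting added after the data were seen, and -0.0789 for valemetostat within the shared run. The sign turned in 3 values in the core alone and 16 with 1 library left out, all where the difference given lay between -1.16 and 1.05. Counts of windows called depended more on the filter. With a mean tally of at least 5 they were 0 for AID-WT valemetostat, 2 for AID-WT plus idelalisib valemetostat, 1 for AID-KO tazemetostat, 15 for Ligase4-KO valemetostat, 1 for AID-KO against AID-WT and 31 for Ligase4-KO against AID-WT. With at least 1 they were 0 for tazemetostat in AID-WT and AID-KO and 7 in Ligase4-KO, and limma trend gave 1 for AID-KO tazemetostat. The replicate block gave 0 for tazemetostat in AID-WT and AID-KO and 1 for AID-KO valemetostat, and with it the Nfkbia call with tazemetostat in AID-WT ended (limma voom, adjusted p = 0.0529). Same-numbered libraries correlated above 0.1 in every pair in 0 of 10 comparisons, so the numbers were not taken as pairs. With 1 library left out, tazemetostat counts ran from 0 to 3 in AID-WT, 0 to 1 with idelalisib, 0 to 1 where AID was knocked out and 16 to 26 in Ligase4-KO, the 16 without DMSO replicate 2. Valemetostat counts ran from 3 to 7 in AID-WT (7 without valemetostat replicate 2), 1 to 2 in AID-WT plus idelalisib (2 without valemetostat replicate 5), 0 to 1 among AID-KO libraries (1 without DMSO replicate 3) and 6 to 17 in Ligase4-KO, with 17 without valemetostat replicate 3 and 13 without replicate 5. With a mean tally of at least 1 the calls of Tnfaip3 and Il4ra with tazemetostat in Ligase4-KO, of Nfkbia with tazemetostat in AID-WT and of Cd74 in Ligase4-KO against AID-WT ended too (adjusted p = 0.0713, 0.111, 0.299 and 0.113). These values per locus were added after the data were seen. Why these counts moved was not tested, beyond the number of windows that each filter leaves. Depth limits both loci outside Ligase4-KO, where most libraries held few junctions at Mir155hg.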
